A study of Mus musculus with 12 samples.

Results

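The 41 genes described here code for proteins of DNA replication and mitosis: the replication origin licensing and nucleotide synthesis machinery, the cyclins and their kinase, the mitotic kinases, the spindle checkpoint, the kinetochore, the spindle motors, and the proliferation markers Mki67 and Top2a. They were taken by gene symbol from a table of 21792 genes measured by RNA sequencing in colon tumours of mice, and all 41 were found and tested. The tumours came from FvB mice that received azoxymethane, a colon carcinogen, intraperitoneally at 10 mg/kg weekly for 6 weeks, with the experiment ending at week 16 after the first injection. There were 3 libraries each of double deficient tumours (miR-34a and p53 deleted in intestinal epithelial cells), p53 deficient tumours (p53 deleted in those cells), miR-34a deficient tumours (miR-34a deleted in those cells) and wt tumours with neither deletion. All 4 genotypes shared the strain and the carcinogen. The labels give no age, no promoter that drove the deletions, and no statement that replicates are separate animals, so each p-value speaks only of how far these libraries differ among themselves. Each library is RNA of whole tumour tissue, in which cells other than epithelium were not the target of either deletion.

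Proliferating cells copy their DNA in S phase, after MCM helicases have been loaded on replication origins by Cdc6 and Cdt1, and then divide under the control of cyclin A, cyclin B and Cdk1. S phase genes are switched on by E2F factors, while many mitotic genes are switched on later by B-Myb and FoxM1 with the MuvB complex, which binds a promoter element known as the CHR. p53 induces Cdkn1a (p21), an inhibitor of cyclin-dependent kinases, and through it keeps many of these genes under repression by the DREAM complex. miR-34a is a microRNA gene that p53 induces, and cell cycle messages are among its known targets. The mature mouse miR-34a-5p (RefSeq, GRCm38.p6, chr4:150068473-150068494, plus strand) is shown because it is the deleted product, with its seed, bases 2 to 8, in capitals.
miR-34a-5p: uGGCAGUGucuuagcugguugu

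The deposited values were normalized expression values rounded to whole numbers, so they compare a gene between libraries and not genes of different length with each other. Trp53, the gene deleted in p53 deficient epithelium, stood at 924, 504 and 724 in the double deficient tumours, at 598, 401 and 576 in the p53 deficient tumours, at 4357, 3466 and 5120 in the miR-34a deficient tumours, and at 4512, 4305 and 4126 in the wt tumours. The 6 libraries labelled with the p53 deletion therefore lay below the other 6 without overlap, and no check of the miR-34a deletion was made on these values. All 10 epithelial marker genes were above 0 in every library. The library wt 3 stood apart within its genotype: it had a higher value than wt 1 and wt 2 for 41 of the 41 members, and the highest of all 12 libraries for 17 of them. A direction of variation within genotypes was also missing from the deposited values, with 47.2% of its weight on double deficient 3. The genotypes share a single estimate of spread, and the fit counted this direction among its 8 residual degrees of freedom. The spread of the double deficient group, and that used in every comparison, is therefore understated. The adjusted p-values given below may be too small. With this direction as a covariate, fewer members were called in each comparison that had calls, as given at the end. Over all genes, calls with p53 loss averaged over miR-34a status went from 1076 to 321. The libraries miR-34a deficient 1 and p53 deficient 1 carried a sequencing run code that the other 10 did not.

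Summed over the 41 members, values were 149345, 162095 and 181539 in the double deficient tumours, 148577, 175750 and 185018 in the p53 deficient tumours, 111019, 98944 and 110187 in the miR-34a deficient tumours, and 116734, 111626 and 192209 in the wt tumours. All 6 tumours without p53 stood above all 3 miR-34a deficient tumours and above wt 1 and wt 2, while wt 3 had the highest sum of all. The miR-34a deficient genotype had the lowest mean log2 value of the 4 for 38 of the 41 members. The highest mean fell to p53 deficient tumours for 20 members, to double deficient tumours for 19 and to wt for 2. The wt means in this ranking include wt 3. Without that library the member median of miR-34a deficient against wt tumours was -0.10, against -0.39 with it. In bulk tissue, fewer dividing cells and less of these RNAs per dividing cell cannot be told apart. The members moved together from library to library: over the 12 libraries the correlation of a member with the mean of the other 40 had a median of 0.87, was highest for the spindle motor Kif11 (r = 0.969), and was at least 0.8 for 29 members. Tyms, which makes thymidylate for DNA synthesis, was the exception at r = 0.108. These correlations are a description over libraries that share their normalization.

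**Figure D1:**
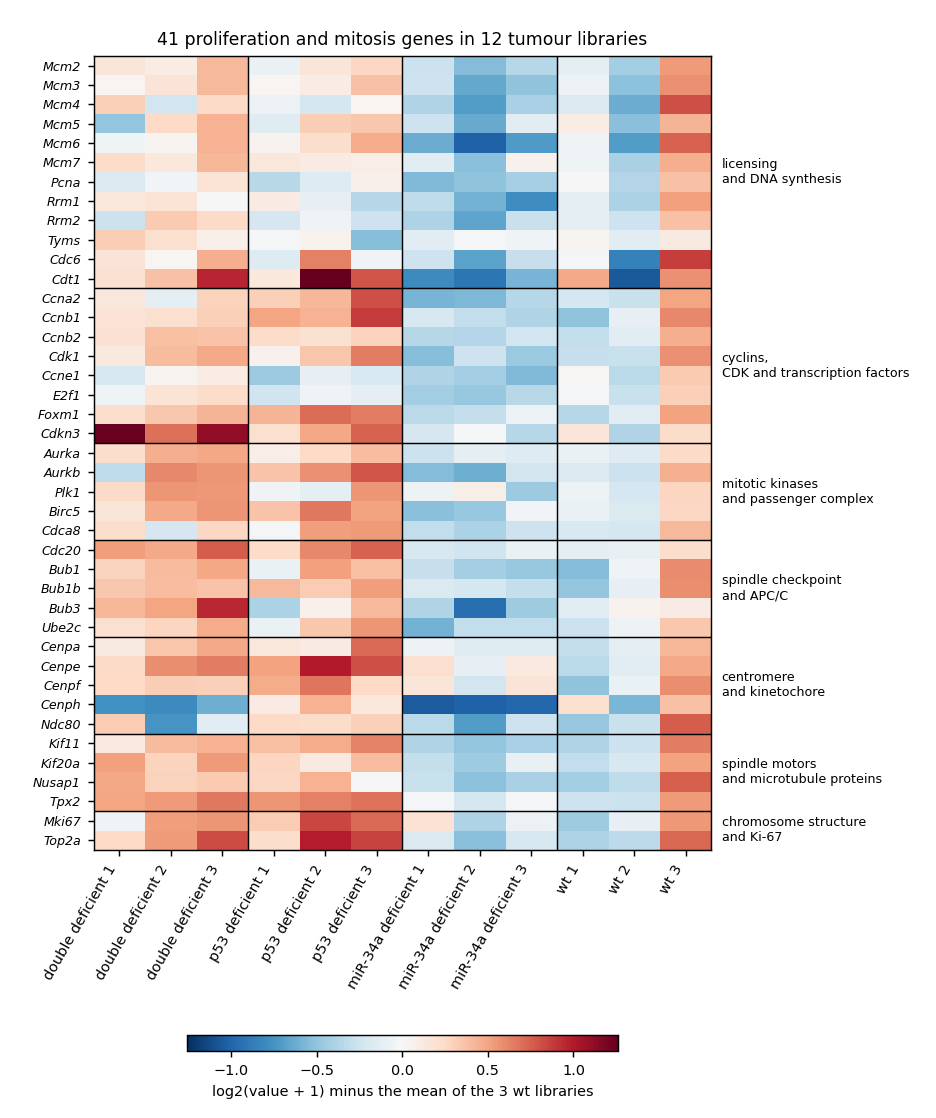
Each row is a member, grouped by role, and each column a library; colour gives log2(value + 1) minus the mean of the 3 wt libraries. The 6 columns of tumours without p53 are mostly red and the 3 miR-34a deficient columns mostly blue, while wt 3 is red for all 41 members and Cenph is blue in the double deficient and miR-34a deficient columns.

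Averaged over miR-34a status (6 tumours without p53 against 6 with it), 8 of 41 members rose with loss of p53 at an adjusted p under 0.05, which is 19.5% of them against 2.21% of all genes called higher. These were Cdc20, Cdkn3, Birc5, Tpx2, Foxm1, Kif11, Cenpe and Aurka, with gains between 0.41 and 0.85 on the log2 scale. All but Cdkn3 are best known for roles in G2 and mitosis. None of the 12 replication and nucleotide synthesis genes passed. The estimates of all 41 members were above 0 (44.5% of all genes), with a median log2 difference of 0.49 against -0.06 over all genes tested, and 28 had an unadjusted p under 0.05, or 68.3% against 9.93% of all genes in that direction. The test was limma's moderated test on log2(value + 1) with Benjamini-Hochberg adjustment over 21322 genes, and every adjusted p below comes from it. The count of 8 depended on single libraries: it was 24 without wt 3, 0 without double deficient 3, between 2 and 4 without double deficient 2, p53 deficient 2, p53 deficient 3, any miR-34a deficient library, wt 1 or wt 2, and 3 without the 2 libraries of the rarer run code. The count was also lower with the missing direction of variation as a covariate, as given at the end. Cdc20 and Cdkn3 passed in 24 of 25 alternative settings each, and the other 6 members in 6 to 16 of them.

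Cdc20, which activates the anaphase-promoting complex once chromosomes are attached to the spindle, had values of 5066, 4903 and 5967 in double deficient tumours, 4136, 5364 and 5870 in p53 deficient tumours, 3057, 2945 and 3315 in miR-34a deficient tumours, and 3221, 3297 and 4088 in wt tumours. It was the one member whose 6 libraries without p53 all lay above the 6 with p53, which held for 1.48% of all genes in that direction. The log2 difference was 0.65 ± 0.11 (SE), or 1.57-fold (adjusted p = 0.0155). Cdkn3, a phosphatase that removes the activating phosphate from Cdk2 and Cdk1, had values of 812, 553 and 746 in double deficient tumours, 395, 480 and 572 in p53 deficient tumours, 296, 338 and 266 in miR-34a deficient tumours, and 380, 263 and 402 in wt tumours. Its double deficient values stood clear of the miR-34a deficient and wt values, while p53 deficient 1 lay within the wt range. The averaged log2 difference was 0.85 ± 0.16, or 1.80-fold (adjusted p = 0.0216). Without double deficient 3, the adjusted p was 0.0615 for Cdc20 and 0.0756 for Cdkn3.

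The promoters of Cdc20, Cdkn3 and Bub3, all called in the comparison of double deficient with miR-34a deficient tumours given below, are shown under a rule. It took called members by smallest unadjusted p, up to a set number, and only where the promoter held a searched motif (CHR, CCAAT box or E2F). That each holds a motif was thus fixed by the rule, and Birc5, also called, held none. The motifs found here were the CHR letters together with CCAAT boxes. Each is the RefSeq window of 250 bases before to 50 after the gene's start in GRCm38.p6, with the matched letters in capitals: Cdc20 at chr4:118437294-118437593 on the minus strand, Cdkn3 at chr14:46760291-46760590 on the plus strand, and Bub3 at chr7:131560120-131560419 on the plus strand. In Cdc20 the CHR letters began at -18 and CCAAT boxes at -53 and -8 from the start site. In Bub3 the CHR letters began at -43 between CCAAT boxes at -74 and -32. In Cdkn3 they began at -111, with CCAAT boxes at -149, -92, -34 and 10.
Cdc20: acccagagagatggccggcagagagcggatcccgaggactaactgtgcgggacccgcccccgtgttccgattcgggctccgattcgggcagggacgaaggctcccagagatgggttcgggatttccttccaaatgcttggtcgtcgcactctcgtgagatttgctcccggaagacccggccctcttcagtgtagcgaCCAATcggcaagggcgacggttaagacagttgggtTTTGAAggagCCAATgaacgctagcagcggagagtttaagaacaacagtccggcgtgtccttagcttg
Cdkn3: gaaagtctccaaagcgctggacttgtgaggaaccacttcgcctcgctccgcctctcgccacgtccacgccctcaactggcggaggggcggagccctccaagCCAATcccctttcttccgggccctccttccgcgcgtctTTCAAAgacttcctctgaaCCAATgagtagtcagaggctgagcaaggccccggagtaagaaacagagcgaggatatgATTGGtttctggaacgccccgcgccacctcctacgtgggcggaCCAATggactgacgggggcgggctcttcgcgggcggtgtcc
Bub3: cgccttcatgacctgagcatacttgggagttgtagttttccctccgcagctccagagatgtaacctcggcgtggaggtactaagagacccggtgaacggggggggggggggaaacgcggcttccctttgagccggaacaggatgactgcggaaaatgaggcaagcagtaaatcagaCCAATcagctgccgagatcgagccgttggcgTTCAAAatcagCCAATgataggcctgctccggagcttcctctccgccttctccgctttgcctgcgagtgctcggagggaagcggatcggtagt

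Among the mitotic kinases and the chromosomal passenger complex, Birc5 (survivin), the passenger subunit that places Aurora B at centromeres, had values of 1383, 1728 and 1831 in double deficient tumours, 1600, 1968 and 1769 in p53 deficient tumours, 861, 892 and 1215 in miR-34a deficient tumours, and 1176, 1094 and 1493 in wt tumours. The groups overlapped at wt 3 and double deficient 1, and the averaged log2 difference was 0.63 ± 0.13 (adjusted p = 0.0264). Aurka, the kinase of the spindle poles, had values of 2277, 2690 and 2747 in double deficient tumours, 2064, 2333 and 2562 in p53 deficient tumours, 1620, 1802 and 1749 in miR-34a deficient tumours, and 1844, 1752 and 2310 in wt tumours. It had the smallest gain of the 8 called members, 0.41 ± 0.10 (adjusted p = 0.0475). In the same group Aurkb, the kinase of the passenger complex, had the largest estimate without passing, 0.66 ± 0.19 (adjusted p = 0.0664), and Plk1, another mitotic kinase, the smallest, 0.36.

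Among the spindle proteins, Tpx2, which activates Aurora A and nucleates spindle microtubules, had values of 4732, 4866 and 5341 in double deficient tumours, 4932, 5204 and 5380 in p53 deficient tumours, 3292, 2877 and 3307 in miR-34a deficient tumours, and 2800, 2777 and 4876 in wt tumours. Only wt 3 of the tumours with p53 reached the values of the tumours without it, and the averaged log2 difference was 0.64 ± 0.14 (adjusted p = 0.0274). Kif11, the motor that pushes the spindle poles apart, had values of 5361, 6510 and 6663 in double deficient tumours, 6393, 6795 and 7573 in p53 deficient tumours, 3779, 3481 and 3721 in miR-34a deficient tumours, and 3781, 4098 and 7721 in wt tumours. Here wt 3 had the highest value of the 12 libraries, and the averaged difference of 0.62 ± 0.16 passed narrowly (adjusted p = 0.0499). Cenpe, a kinetochore motor that moves chromosomes to the spindle equator, had values of 2169, 2755 and 2864 in double deficient tumours, 2611, 3669 and 3205 in p53 deficient tumours, 2113, 1710 and 1996 in miR-34a deficient tumours, and 1448, 1670 and 2542 in wt tumours. Its averaged difference was 0.59 ± 0.15 (adjusted p = 0.0477), again with overlap at wt 3.

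Foxm1, a transcription factor for mitotic genes, had values of 2462, 2657 and 2838 in double deficient tumours, 2831, 3437 and 3285 in p53 deficient tumours, 1668, 1707 and 1994 in miR-34a deficient tumours, and 1638, 1903 and 2995 in wt tumours. Its averaged log2 difference was 0.58 ± 0.14 (adjusted p = 0.0421). E2f1, the transcription factor of S phase entry, had values of 564, 658 and 686 in double deficient tumours, 492, 566 and 539 in p53 deficient tumours, 432, 419 and 458 in miR-34a deficient tumours, and 575, 481 and 721 in wt tumours. Its averaged difference was 0.20 ± 0.13 (adjusted p = 0.359), and the wt values covered all those of the tumours without p53. The kinase Cdk1 had values of 3836, 4631 and 4897 in double deficient tumours, 3657, 4488 and 5522 in p53 deficient tumours, 2427, 2937 and 2556 in miR-34a deficient tumours, and 2877, 2907 and 5238 in wt tumours. All its values without p53 exceeded those of 5 of the 6 tumours with it, the exception being wt 3, and the difference of 0.55 ± 0.16 did not pass (adjusted p = 0.0732). Ccne1, the cyclin of the step into S phase, had the smallest estimate of this group, 0.09.

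**Figure D2:**
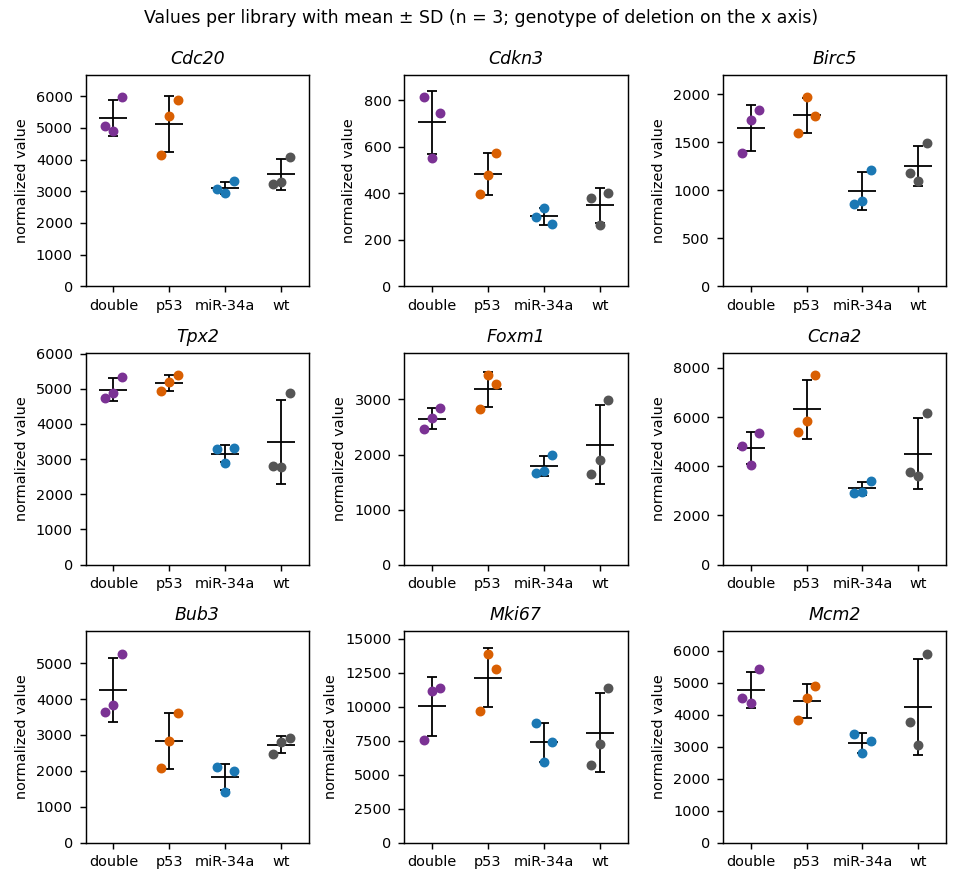
Normalized values of 9 members per library on linear axes from 0; points are libraries, horizontal marks the mean and bars the SD (n = 3 per genotype), with genotypes named by their deletion. For Cdc20 the 6 values without p53 lie above the other 6; for Tpx2, Foxm1, Mki67 and Mcm2 the wt 3 point lies far above the other wt points.

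For the replication genes the same comparison gave smaller estimates, with a median of 0.29 over 12 genes, between 0.04 for Tyms and 1.00 for the licensing factor Cdt1 (adjusted p = 0.0729). Mcm2, a subunit of the replicative helicase, had values of 4532, 4355 and 5424 in double deficient tumours, 3845, 4540 and 4893 in p53 deficient tumours, 3386, 2792 and 3177 in miR-34a deficient tumours, and 3786, 3041 and 5912 in wt tumours, a difference of 0.36 ± 0.15 (adjusted p = 0.177). Pcna, the sliding clamp of DNA polymerase, had values of 9901, 10986 and 12659 in double deficient tumours, 8847, 10045 and 11754 in p53 deficient tumours, 7666, 7924 and 8403 in miR-34a deficient tumours, and 11226, 8741 and 14561 in wt tumours. The wt range held all 6 values of the tumours without p53, and the difference of Pcna was 0.16 ± 0.13 (adjusted p = 0.469). Whether replication genes and mitotic genes differ in their response was not tested.

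Mki67, the gene of the histological proliferation marker Ki-67, had values of 7526, 11166 and 11399 in double deficient tumours, 9699, 13905 and 12766 in p53 deficient tumours, 8804, 5937 and 7384 in miR-34a deficient tumours, and 5709, 7257 and 11344 in wt tumours. Double deficient 1 lay below miR-34a deficient 1 and wt 3 lay among the tumours without p53, so the genotypes overlapped, and the averaged difference of 0.53 ± 0.19 did not pass (adjusted p = 0.113). Top2a, the topoisomerase that untangles chromosomes before anaphase, had the largest averaged estimate among the mitotic genes that did not pass, 0.76 ± 0.21 (adjusted p = 0.0575).

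The contrast was widest against the miR-34a deficient tumours, which also served in the averaged comparison, so these results share libraries. In p53 deficient against miR-34a deficient tumours 5 of 41 members rose (12.2%, against 1.13% of all genes called higher): the centromere protein Cenph by 1.24 ± 0.21 (adjusted p = 0.0196), Ccna2 by 1.01 ± 0.21 (adjusted p = 0.0341), Birc5 by 0.86 ± 0.19 (adjusted p = 0.0369), Foxm1 by 0.83 ± 0.20 (adjusted p = 0.0475) and Cdc20 by 0.71 ± 0.16 (adjusted p = 0.0375). Ccna2, cyclin A, which serves both S phase and mitotic entry, had values of 5406, 5832 and 7692 in p53 deficient tumours, against 2927, 2952 and 3418 in miR-34a deficient tumours; double deficient tumours had 4818, 4036 and 5341 and wt tumours 3753, 3613 and 6184. The values of p53 deficient tumours lay above those of miR-34a deficient tumours without overlap for 35 members (11.1% of all genes), and the median log2 difference was 0.65 against -0.10 over all genes. The other 40 estimates than that of Tyms (-0.10) were above 0, against 42.6% of all genes. The count of 5 was 16 without wt 3, 9 without p53 deficient 1, 2 without double deficient 2, 1 without double deficient 3, and 0 without p53 deficient 2, p53 deficient 3 or any miR-34a deficient library. It was also 0 without the libraries of the rarer run code, and 0 when Y-linked expression, which was lowest in wt 1, miR-34a deficient 1 and the double deficient libraries, was added to the fit. Tissue markers differed in this comparison too, though none was called. All 10 epithelial markers had estimates above 0 (median 0.22). All 10 fibroblast (-0.84), all 10 endothelial (-0.87) and all 10 smooth muscle markers (-0.45) and 7 of 9 macrophage markers (-0.79) had estimates below 0. Summed epithelial values ranged from 647379 to 867968 in p53 deficient tumours, against 495046 to 597505 in miR-34a deficient tumours. Summed fibroblast values ranged from 10687 to 27044 in p53 deficient tumours, against 30046 to 44872 in miR-34a deficient tumours. The part of this shift in the members' differences was not tested.

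In double deficient against miR-34a deficient tumours 3 members rose (7.32%, against 0.286% of all genes called higher): Cdkn3 by 1.22 ± 0.23 (adjusted p = 0.0383), Bub3 by 1.21 ± 0.23 (adjusted p = 0.0371) and Cdc20 by 0.77 ± 0.16 (adjusted p = 0.0492). Bub3, a spindle checkpoint protein that recruits Bub1 and BubR1 to kinetochores, had values of 3639, 3846 and 5264 in double deficient tumours, against 2100, 1412 and 1992 in miR-34a deficient tumours; p53 deficient tumours had 2067, 2838 and 3624 and wt tumours 2466, 2803 and 2925. The double deficient tumours therefore had the 3 highest Bub3 values of the 12 libraries, although p53 deficient 3 (3624) came close to double deficient 1 (3639). Estimates were above 0 for all 41 members (45.1% of all genes), with a median of 0.60 against -0.06 over all genes, and the groups did not overlap for 37 members (13.0% of all genes in that direction). The count of 3 was 8 without wt 3 and 1 without double deficient 2 or wt 2. It was 0 without double deficient 1, double deficient 3, wt 1 or any single miR-34a deficient library. With run code or the missing direction of variation as a covariate it was 0, as with no trend in the prior variance. It was 1 without the libraries of the rarer code. Tissue markers differed here too. Colonocyte markers had a median of -2.265 and goblet markers -2.34, with 1 of 10 called lower in each, against 0.619% of all genes. Of 9 neutrophil markers 1 was called lower, while 6 had estimates above 0. The part of this shift in the members' differences was not tested.

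Against wt, no member passed in any of the 3 comparisons. In double deficient against wt tumours 37 of 41 estimates were above 0 (51.6% of all genes), with a median log2 difference of 0.31 against 0.02 over all genes; at an unadjusted p under 0.05, 7 members were higher (17.1%, against 7.19% of all genes) and 1 lower (8.08% of all genes). The largest estimate was that of Cdkn3, 1.02 ± 0.23 (adjusted p = 0.0748), and the lowest that of Cenph, -0.73 ± 0.21 (adjusted p = 0.143). By limma's adjusted p, 0.802% of all genes were called in this comparison. Tissue markers differed in it as well. Of 10 colonocyte markers 5 were called lower (median -2.92) and of 10 goblet markers 2 (median -3.00), against 0.582% of all genes. Of 10 endothelial markers 2 were called higher (median 0.99), against 0.220% of all genes. Of 9 neutrophil markers 1 was called higher and 1 lower. The part of these shifts in the members' differences was not tested. In p53 deficient against wt tumours 34 estimates were above 0 (46.2% of all genes), with a median of 0.26 against -0.04 over all genes, and 9 were higher at an unadjusted p under 0.05 (22.0%, against 6.69% of all genes); limma called 0.0234% of all genes. Role groups had medians of 0.11 for licensing and DNA synthesis, 0.35 for mitotic kinases, 0.37 for spindle motors and 0.66 for Mki67 and Top2a. Pcna was at -0.15 ± 0.18 and Cenpe at 0.77 ± 0.22 (adjusted p = 0.148). The median of double deficient against wt tumours was 0.15 without wt 1, 0.19 without wt 2 and 0.53 without wt 3. With the same libraries left out, that of p53 deficient against wt tumours was 0.17, 0.17 and 0.57. Leaving out wt 3 gave 1 call in each of these 2 comparisons.

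In miR-34a deficient against wt tumours the estimates pointed the other way: 39 of 41 were below 0 (45.7% of all genes), with a median of -0.39 against 0.03 over all genes. No member passed, while 9 were lower at an unadjusted p under 0.05 (22.0%, against 1.48% of all genes in that direction), and limma's adjusted p called 0.0375% of all genes. For 10 members (24.4%, against 3.57% of all genes in that direction) the miR-34a deficient values lay below wt without overlap. These included Pcna at -0.50 ± 0.18, Bub3 at -0.59 ± 0.23 and E2f1 at -0.42 ± 0.18 (adjusted p between 0.757 and 0.784 for the 3). The pattern leaned on wt 3: without that library the median was -0.10. Tissue markers moved in the same comparison, with estimates below 0 for all 10 epithelial markers (median -0.22). Estimates were above 0 for all 10 endothelial (0.93), all 10 smooth muscle (0.76) and all 10 fibroblast markers (0.46), none of them called. Their part in the members' values was not tested.

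Over both p53 states, loss of miR-34a gave a single call among the members, the fall of Cenph, or 2.44% of the members against 0.197% of all genes called lower. Cenph, a subunit of the constitutive centromere complex on which kinetochores are built, had values of 1940, 1884 and 2138 in double deficient tumours and 1586, 1624 and 1653 in miR-34a deficient tumours, against 3527, 4452 and 3595 in p53 deficient tumours and 3775, 2204 and 4247 in wt tumours. All 6 libraries without miR-34a lay below all 6 with it, as in 0.202% of all genes in that direction, although double deficient 3 and wt 2 came close. The log2 difference was -0.98 ± 0.15, or 0.506-fold (adjusted p = 0.0214). The call held in 13 of 25 alternatives, with the direction kept in all. It was lost without double deficient 1 or 3, miR-34a deficient 1 or 3, p53 deficient 2 or 3, or wt 1 or 3. The call was also lost without the libraries of the rarer run code, and with no trend in the prior variance. Adding the Y-linked level or the missing direction of variation as a covariate lost it too. Y-linked expression (mean log2) ran from 0.25 to 0.79 in double deficient and from 0 to 5.28 in miR-34a deficient libraries. In p53 deficient libraries it ran from 3.73 to 6.98, and in wt libraries from 0 to 4.35. Within the p53 states the estimates were -0.95 ± 0.21 in double deficient against p53 deficient tumours (adjusted p = 0.0783) and -1.02 ± 0.21 in miR-34a deficient against wt tumours (adjusted p = 0.255), neither of which passed alone. Over the other 40 members the estimates lay between -0.49 for Cdt1 and 0.17 for Cdkn3, and the median over all 41 was -0.15 against 0.04 over all genes. Without wt 3 that median was -0.01.

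The promoter of Cenph (chr13:100775850-100776149, minus strand, GRCm38.p6, RefSeq) is shown under the same rule, which required a searched motif. Cenph was the one member called with miR-34a loss. It held a CCAAT box at 32 and an E2F motif at 42 bases from the start site, in capitals, and no CHR letters.
Cenph: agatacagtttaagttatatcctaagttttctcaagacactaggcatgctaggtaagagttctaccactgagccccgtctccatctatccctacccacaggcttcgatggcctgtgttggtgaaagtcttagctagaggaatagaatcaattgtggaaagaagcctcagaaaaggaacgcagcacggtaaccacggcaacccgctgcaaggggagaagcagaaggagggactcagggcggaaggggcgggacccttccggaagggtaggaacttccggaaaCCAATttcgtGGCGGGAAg

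Cenph lies on chromosome 13 at 100759674 to 100775899 in mm10, with Ccnb1, the gene of cyclin B1 and also a member, 2.75 kb away on the same strand. Ccnb1 had values of 6975, 7144 and 7622 in double deficient tumours and 5386, 5015 and 4777 in miR-34a deficient tumours, against 8732, 8370 and 11440 in p53 deficient tumours and 4364, 5769 and 9451 in wt tumours. Its averaged difference with miR-34a loss was -0.34 ± 0.16 (adjusted p = 0.396), with overlap between the groups. Of the next genes on either side, Mrps36 ranged from 1365 to 1969 in tumours without miR-34a and from 1142 to 1770 in tumours with it, and Slc30a5 from 4132 to 5719 in tumours without miR-34a and from 4694 to 6677 in tumours with it. Neither showed the gap that Cenph showed.

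**Figure D3:**
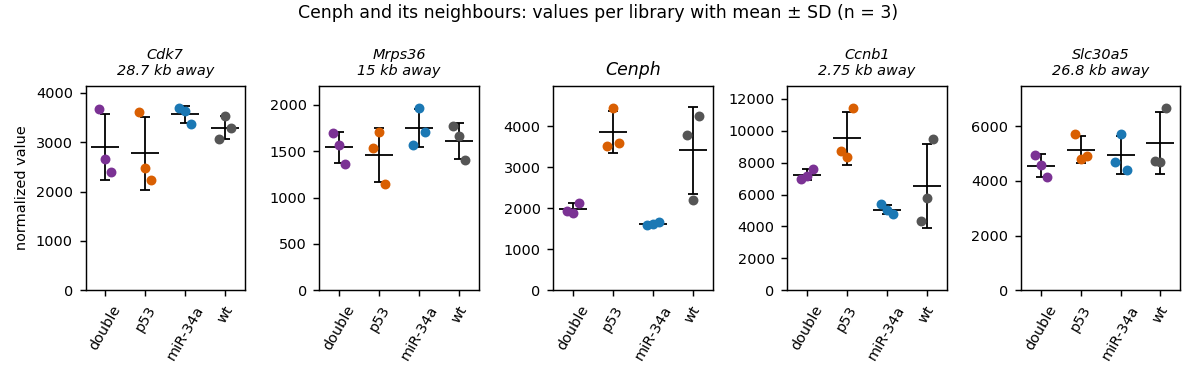
Normalized values per library of Cenph and of 4 genes within 30 kb of it, on linear axes from 0; points are libraries, marks the mean and bars the SD (n = 3 per genotype). For Cenph the double and miR-34a deficient points lie between 1586 and 2138, below the p53 deficient and wt points, while the points of the other 4 genes overlap.

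Between double deficient and p53 deficient tumours no member passed, and limma called 0.605% of all genes. The estimates were split, 21 above 0 (55.0% of all genes) and 20 below, with a median of 0.04 against 0.05 over all genes; at an unadjusted p under 0.05, 3 were higher (8.05% of all genes) and 1 was lower (7.08% of all genes). Bub3 was the highest at 0.60 ± 0.23 (adjusted p = 0.247) and Cenph the lowest. The sign of the median was not stable, since it was -0.0021 after median-of-ratios rescaling, -0.08 without p53 deficient 1 and -0.05 without double deficient 3. Y-linked expression (mean log2) ran from 0.25 to 0.79 in double deficient and from 3.73 to 6.98 in p53 deficient libraries. Genotype and Y-linked level therefore cannot be told apart in this comparison. With that level as a covariate the member median was higher, as given at the end, and 0.0328% of all genes were called.

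No member passed the test of the interaction, which is the effect of miR-34a loss in tumours without p53 minus its effect in tumours with p53 (0.0234% of all genes passed in either direction). At an unadjusted p under 0.05, 7 of 41 were positive (17.1%, against 3.26% of all genes). Estimates were above 0 for 35 members (50.5% of all genes), with a median of 0.40 against 0.01 over all genes; the median was 0.52 for the 12 replication genes and -0.01 for the 5 centromere genes. Bub3 had the largest value, 1.19 ± 0.32 (adjusted p = 0.427): it was lower in miR-34a deficient than in wt tumours and higher in double than in p53 deficient tumours. The median was 0.13 without wt 3 and 0.25 without p53 deficient 1.

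**Figure D4:**
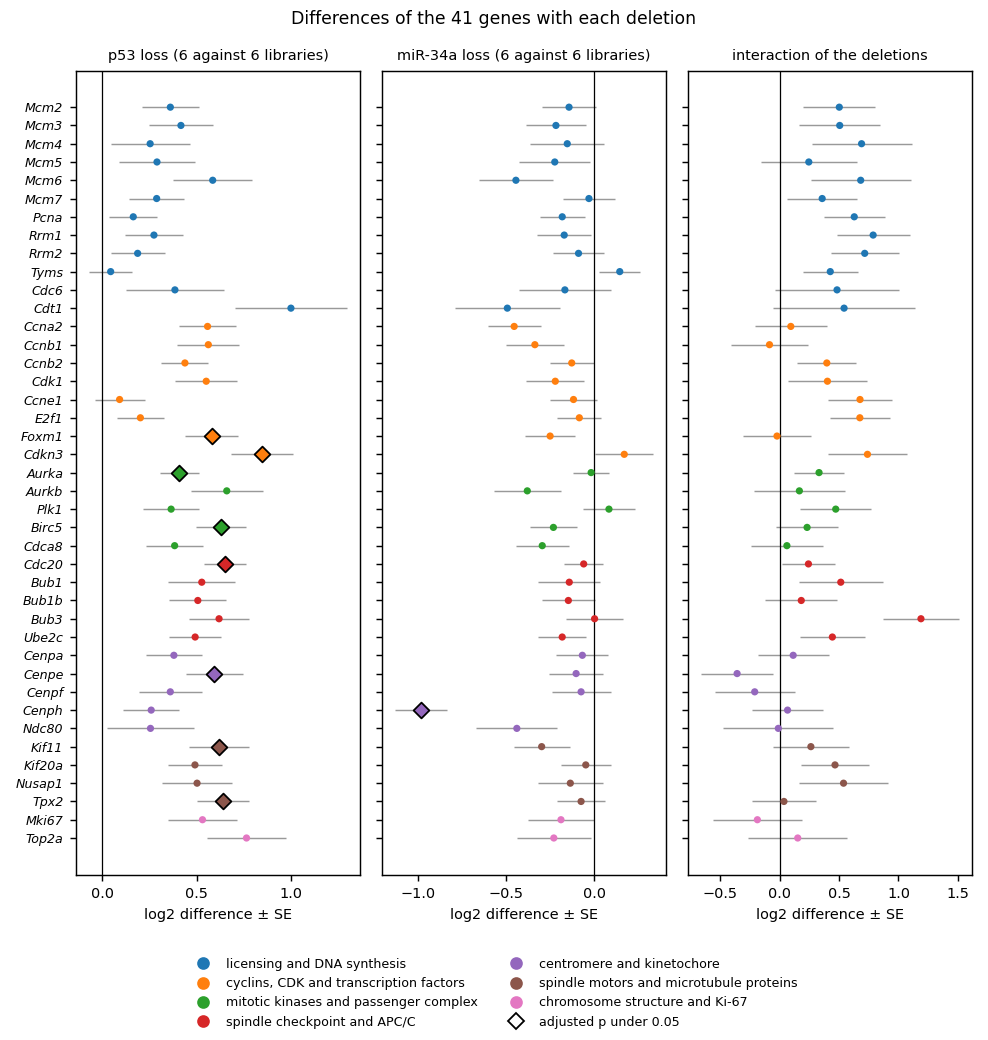
Log2 differences of the 41 members (points, coloured by role; bars are the SE) with loss of p53, with loss of miR-34a, each averaged over the state of the other gene, and for the interaction; diamonds mark an adjusted p under 0.05. All points of the first panel lie above 0 with 8 diamonds, the second panel has 1 diamond at Cenph (-0.98), and the third has none.

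The sequences of the members played no part in choosing them. RefSeq promoters were matched for 35 members; Aurkb, Ccna2, Foxm1, Kif20a, Mcm4 and Tpx2 had no entry. Both strands were searched for the CHR (TTTGAA or TTCGAA), the CCAAT box (CCAAT) and E2F motifs (TTTCCCGC, TTTGGCGC, TTTCGCGC, TTTGCCGC, TTCCCGCC or TTGGCGCC), of which TTGGCGCC can share letters with a CCAAT box. CHR letters were in 19 of 35 members (54.3%, against 19.2% of 32851 promoters), CCAAT boxes in 27 (77.1%, against 37.4%), CHR and CCAAT together in 18 (51.4%, against 7.52%), and E2F motifs in 10 (28.6%, against 4.45%). A member counted when any of its promoter windows held the motif, while the share of all promoters counted single windows. Bub3 and Mcm7 had more than a single window, and Mcm7 held CHR letters and E2F motifs in only a single window. E2F motifs were in 7 of the 11 replication gene promoters and in 3 of the 24 others, and CHR letters in 2 of the 11 and in 17 of the 24. With p53 loss the 19 members with CHR letters had a median difference of 0.49 and the 16 without them 0.34, ranges that overlapped (0.25 to 0.85, and 0.04 to 1.00). A match is a match of letters, not a shown binding site.

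Sites for the miR-34a seed (CACTGCC) were found in the 3′ UTRs of 4 of 41 members, Mcm5, Cdc6, Cdca8 and Cdkn3, beside 15.8% of 16091 genes. The longest 3′ UTR of each gene was searched for this match only, without regard to its length. Whether the shares differ was not tested. The 4 sites are shown in capitals, as places where the deleted microRNA could pair.
Mcm5: tcccgggccactCACTGCCaagctt
Cdc6: ctctgagatgcaCACTGCCcactgc
Cdca8: tgtggggtccttCACTGCCaacacc
Cdkn3: gccctttataaaCACTGCCacgtgc
With miR-34a loss averaged over p53 status, these 4 had log2 differences of -0.22 for the helicase subunit Mcm5, -0.17 for the licensing factor Cdc6, -0.29 for the passenger complex subunit Cdca8 and 0.17 for Cdkn3, none of which passed. The averaged value of Cdkn3, the highest of the 41, joined estimates of opposite sign, 0.54 ± 0.23 in double deficient against p53 deficient tumours (adjusted p = 0.303) and -0.20 ± 0.23 in miR-34a deficient against wt tumours (adjusted p = 0.954). The other 3 lay on the same side of 0 as most members without a site.

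Other cell cycle genes were listed with the earlier results of these data known. Their calls with p53 loss averaged over miR-34a status are read beside 2.21% of all genes called higher and 2.84% called lower. Of 65 further mitosis genes tested, 15 rose and 1 fell, with a median of 0.50. Prc1, which bundles the microtubules of the central spindle, had values of 6923, 6589 and 7278 in double deficient tumours, 5327, 8395 and 6967 in p53 deficient tumours, 3634, 3823 and 3916 in miR-34a deficient tumours, and 3704, 4577 and 4063 in wt tumours. These did not overlap between tumours without and with p53 (0.80 ± 0.11, adjusted p = 0.00818). Ncapd2, a condensin subunit, rose by 0.67 ± 0.10 (adjusted p = 0.0092), also without overlap. Psrc1, a spindle protein whose gene is a p53 target, was the one that fell, by 2.26 ± 0.30 (adjusted p = 0.00638). Of 40 further S phase genes 5 rose and none fell, with a median of 0.27: the DNA polymerase delta subunit Pold2 (0.93 ± 0.16), the thymidine kinase Tk1 (0.85 ± 0.15), the checkpoint mediator Clspn (1.00 ± 0.22), the primase subunit Prim2 (0.60 ± 0.13) and the clamp loader subunit Rfc4 (0.71 ± 0.16), with adjusted p between 0.0171 and 0.0347. Of 12 DREAM and MuvB genes only Mybl2, the gene of B-Myb, rose (0.62 ± 0.16, adjusted p = 0.0482). None of 12 G1 entry genes passed in this comparison. In double against p53 deficient tumours 1 of those 12, Ccnd2, was called lower (-0.97 ± 0.17, adjusted p = 0.0346), beside 0.380% of all genes.

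Among 7 genes of CDK inhibitors, Cdkn1a and Cdkn2b fell with p53 loss and none rose (2.84% of all genes were called lower). Cdkn1a, the p53 target that codes for p21, had values of 5448, 7855 and 6695 in double deficient tumours, 9454, 10113 and 12694 in p53 deficient tumours, 17793, 24443 and 24519 in miR-34a deficient tumours, and 22035, 35763 and 11867 in wt tumours. The wt 3 library, which had the highest member values of its genotype, had the lowest Cdkn1a value among the tumours with p53 and lay within the p53 deficient range. The averaged difference was -1.36 ± 0.23 (adjusted p = 0.0151). Cdkn2b, which codes for the inhibitor p15, had a difference of -0.80 ± 0.18 (adjusted p = 0.0352).

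Markers of cell types moved with the genotypes as well. The 10 colonocyte markers, genes of differentiated absorptive cells, had a median difference of -1.70 with p53 loss, 5 of them called lower (2.84% of all genes), and 9 were above 0 in every library; their summed values ranged from 5537 to 43564 in double deficient tumours, from 27881 to 51154 in p53 deficient tumours, from 23831 to 77986 in miR-34a deficient tumours and from 63637 to 141994 in wt tumours. The 10 goblet markers had a median of -1.88, 4 called lower, with sums from 13050 to 61054 in double deficient, 50292 to 184686 in p53 deficient, 42992 to 684663 in miR-34a deficient and 329311 to 461007 in wt tumours. Epithelial markers had a median of 0.00 with p53 loss, 5 of 10 above 0. Fibroblast markers had a median of -0.38, 9 of 10 below 0. Of 9 neutrophil markers 7 were above 0 and 1 was called higher, with a median of 1.33. Their summed values were nevertheless lowest in double deficient tumours, from 3889 to 5075, against 9617 to 14624 in p53 deficient, 5734 to 10830 in miR-34a deficient and 5293 to 11607 in wt tumours. With miR-34a loss, all 10 endothelial markers had estimates above 0, with a median of 0.98, and sums from 2201 to 4106 in double deficient and from 2158 to 2779 in miR-34a deficient tumours, against 1188 to 2072 in p53 deficient and 1011 to 2232 in wt tumours. The part of these cell types in the members' differences was not tested.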

How the data were processed

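RNA sequencing values of 12 colon tumour libraries, 3 per genotype, were used. Each gene symbol has a score per library, which the authors deposited as a normalized level in whole numbers. Per the submitters' processing notes mm10 was the build; how reads were aligned, counted and normalized is not given in the sources used here. Depth and counting precision are therefore unknown. Values were used as deposited, as log2(value + 1); limma 3.58.1 (R 4.3.3) was run on the 21322 genes whose mean reached 1 with a trend in the prior variance (1 mean per genotype, 8 residual degrees of freedom, Benjamini-Hochberg adjustment over all genes, threshold 0.05), after the fit was tested on simulated data. The members, gene lists, markers and tests were chosen with earlier results of these data known. All members may be named; per-library values are given for members called in any comparison, for the member of each role with the smallest p against wt, and for Mki67, Ccnb1, Cdk1, Mcm2 and E2f1. From the other lists only part of the called genes are named. Motifs were searched in RefSeq promoters of GRCm38.p6, seed sites in GENCODE M21 3′ UTRs. A pseudogene of Pcna in the table had values up to 129; reads of such copies cannot be told apart.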

Additional observations from a re-analysis of the deposited data

How the results depend on the processing

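All 17 calls of single members kept their direction in every alternative of the fit tried (26 for comparisons of 2 genotypes, 25 for the averaged ones), but many did not keep the threshold. Leaving out 1 library at a time gave between 0 and 8 calls for double against miR-34a deficient tumours, 0 and 16 for p53 against miR-34a deficient tumours, 0 and 24 for p53 loss averaged over miR-34a status, 0 and 1 for averaged miR-34a loss, and 0 and 1 for each of miR-34a deficient against wt, p53 deficient against wt, double deficient against wt, and double against p53 deficient tumours. The highest of the first 3 (8, 16 and 24) came without wt 3, and 0 for p53 loss came without double deficient 3; the 1 call came without wt 2 for miR-34a deficient against wt and for double against p53 deficient tumours, without wt 3 for p53 deficient against wt, and without wt 2 or without wt 3 for double deficient against wt; for p53 against miR-34a deficient tumours 0 came without p53 deficient 2 or 3 or any miR-34a deficient library. The median log2 difference of the members then ranged from -0.4807 to -0.0957 for miR-34a deficient against wt, from 0.1657 to 0.5686 for p53 deficient against wt, from 0.1538 to 0.5277 for double deficient against wt, from -0.2149 to -0.0122 for averaged miR-34a loss, from -0.0845 to 0.0976 for double against p53 deficient, and from 0.1334 to 0.4993 for the interaction.

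The missing direction of variation as a covariate left 0 calls for double against miR-34a deficient, 1 for p53 against miR-34a deficient, 2 for p53 loss and 0 for miR-34a loss, and a fit with no trend in the prior variance left 0, 1, 3 and 0 in these comparisons. Without the libraries of the rarer run code there were 1, 0, 3 and 0 calls, and with run code as a covariate 0 for double against miR-34a deficient. Y-linked expression as a covariate left 0 calls for p53 against miR-34a deficient and 0 for miR-34a loss, and moved the member medians to 0.3031 for double against p53 deficient, 0.6699 for the interaction, 0.0636 for p53 deficient against wt and -0.0098 for averaged miR-34a loss. Fitting only the genotypes compared left 1 call for p53 against miR-34a deficient. The median of double against p53 deficient turned to -0.0021 with median-of-ratios rescaling, -0.0402 with run code as a covariate and -0.0845 without the rarer run code. Quantile normalization moved the median of all genes in p53 against miR-34a deficient tumours by 0.13. The cause of these changes was not tested. Depth is unknown, which limits what can be said of low values.

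With the replicate number as a block, calls numbered 8 for p53 against miR-34a deficient tumours and 15 for averaged p53 loss; the numbers share no stated origin, the correlation exceeded 0.1 in 7 of 18 pairs of like number, and for 4 of 12 libraries the best match had the same number, so they were not taken as pairs.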
